A study of Mus musculus with 6 samples.

Results

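The 36 genes described here encode proteins of the lysosome: its proteases, sugar-cleaving enzymes, lipase, phosphatases and nuclease, the activator proteins that help them, proteins of its limiting membrane, 4 subunits of the proton pump that acidifies it, and the transcription factor Tfeb. They were taken by gene symbol from a fixed list of names. All 36 were found, each as a single Ensembl gene, among the 56940 genes counted. The libraries came from wildtype C57BL/6 mice, from lens capsules with the lens epithelial cells that adhere to them, in a model of cataract surgery in which the fiber mass is taken out and capsule and epithelium stay behind. Capsules taken 5 days after the operation (3 libraries) were compared with capsules taken during the operation (0 h, 3 libraries), and each library was a pool of 5 capsules. At 0 h the capsules were taken from the other eye of animals already operated on in one eye 5 days before, so the 0 h animals had been through surgery as well. Nothing in the labels says whether pools share animals, or ties a 5 day replicate to a 0 h replicate.

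Lysosomes are acidic compartments in which proteins, glycans, lipids and nucleic acids are taken apart. Most of their enzymes are made as inactive precursors, sorted through the mannose 6-phosphate pathway, and switched on by the low pH that a vacuolar proton pump (V-ATPase) maintains. Phagocytes such as macrophages carry large amounts of them, with a set of cathepsins used in antigen presentation and matrix digestion. In the lens, fiber cells lose their organelles as they mature, and a lysosomal nuclease made in the lens degrades their nuclear DNA, while the epithelial cells keep their lysosomes. Many lysosomal genes carry a short palindromic element near their start that the factor TFEB binds, often called the CLEAR element.

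That element was looked for as TCACGTGA, which reads the same on both strands, in the RefSeq promoter windows of build GRCm38.p6 (250 bases before to 50 after each start). Windows were at hand for 32 of the 36 genes (all but Ctsb, Ctsh, Atp6v0d2 and Atp6v1b2), and 7 of these genes held the element, 21.9% of them, against 1.12% of all 27025 genes with a window. By windows the shares were 17.5% of 40 and 0.974% of 32851. The stretches are shown because their genes are compared further on with those whose windows lack the element. Capitals mark TCACGTGA, and each line runs 5′ to 3′ on the strand of the gene and ends at or before the start site, except that the Atp6v0d1 element spans it.
Ctsd: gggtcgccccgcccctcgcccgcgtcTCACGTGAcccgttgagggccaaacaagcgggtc
Ctsa: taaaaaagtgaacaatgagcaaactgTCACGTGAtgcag
Gla: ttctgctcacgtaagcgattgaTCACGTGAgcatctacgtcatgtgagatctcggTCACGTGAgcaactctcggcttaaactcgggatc
Cln3: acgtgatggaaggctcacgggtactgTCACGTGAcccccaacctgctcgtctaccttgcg
Mcoln1: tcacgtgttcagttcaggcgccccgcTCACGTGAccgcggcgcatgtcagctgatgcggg
Atp6v0d1: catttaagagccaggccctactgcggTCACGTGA
Atp6v1a: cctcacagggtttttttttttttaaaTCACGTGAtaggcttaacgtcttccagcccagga
In build GRCm38.p6 these stretches lie at chr7:142387893-142387952 (minus strand) for Ctsd, chr2:164833734-164833772 (plus strand) for Ctsa, chrX:134601167-134601255 (minus strand) for Gla, chr7:126583325-126583384 (minus strand) for Cln3, chr8:3500447-3500506 (plus strand) for Mcoln1, chr8:105566061-105566094 (minus strand) for Atp6v0d1 and chr16:44139358-44139417 (minus strand) for Atp6v1a. The element begins 99 bases upstream of the start in Ctsd, 13 in Ctsa, 122 in Cln3, 46 in Mcoln1, 4 in Atp6v0d1 and 132 in Atp6v1a. Gla holds it at 228 and at 195 bases upstream, and the Ctsa window holds another copy past the start that is not printed. The core CACGTG, with or without the flanking T and A, was present in windows of 12 of the 32 genes (37.5%), against 8.09% of all genes with a window. A match describes the letters of a window and says nothing on binding.

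The libraries held 6207387 to 8682659 gene counts at 5 days and 7709815 to 9774343 at 0 h. Levels are counts scaled to a common library size (CPM). Changes are log2 fold changes, positive where 5 days exceeds 0 h, followed by the standard error (SE). A gene was called when edgeR's quasi-likelihood test gave an adjusted p under 0.05 over all 14676 genes tested. The label of lens epithelial cells was checked with marker genes. The epithelial transcription factors Pax6, Six3, Sox2, Foxe3 and Pitx3 were present in every library, though not all at a steady level. Foxe3 and Pitx3 fell, by -1.37 and -1.68 on the log2 scale, and Six3 and Sox2 were not called. Of all tested genes 22.5% were called lower and 25.1% higher, which are the shares to set beside the marker counts here. Of 12 lens epithelium markers 8 were lower at 5 days, among them also Prox1 (-1.23) and Cdh1 (-1.74), and 1 was higher. Pax6 was the one that rose, by 0.28 on the log2 scale, and the crystallins Cryaa and Cryab changed by -2.48 and -2.66. All 10 tested fiber markers were lower at 5 days, with summed levels of 2105 to 5301 CPM at 5 days against 22330 to 24790 CPM at 0 h. The most abundant, the crystallin Cryba1, changed by -3.57, and Birc7 had no counts at 5 days, against 171, 56 and 74 counts at 0 h. Birc7 passed the filter on low counts through the 0 h libraries and could hardly come out higher. Photoreceptor markers, which belong to the retina, were lower for 10 of 10, with sums of 47.1 to 126.4 CPM at 5 days against 604 to 904 CPM at 0 h. Of these Rcvrn, Cnga1 and Gngt1 likewise passed that filter through the 0 h libraries. Replicate 3 of 5 days stood apart from the other libraries on the second principal component (5.13% of the variance).

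Lysosomal genes were mostly more abundant at 5 days. Of the 36 genes 27 were higher and none was lower, so 75.0% were called higher, against 25.1% of all tested genes called higher and 22.5% called lower (47.6% in either direction). No gene of the 36 was lower at an unadjusted p under 0.05 by edgeR, or by DESeq2 or limma-voom after adjustment. Of the 27, 16 were at least 2-fold higher (44.4% of the 36, against 14.5% of all tested genes), and 11 were higher by less than that. The median log2 fold change was 0.77 over the 36 genes and -0.0063 over all tested genes. When libraries were scaled by total size and not by TMM, 62.9% of all calls were upward against 52.7%, all genes shifted by a median of 0.13, and 28 of the 36 were called higher. All 3 libraries of 5 days lay above all 3 of 0 h for 30 of the 36 genes, against 29.9% of all tested genes, and below them for 1, against 28.2%. All 36 passed the filter on low counts, but Ctsk, Acp5 and Atp6v0d2 did so through the 5 day libraries, and a gene of this kind could hardly come out lower. Together the 36 genes took 0.904, 0.81 and 0.851% of the gene counts at 5 days and 0.405, 0.413 and 0.464% at 0 h. In a bulk sample, more cells of a type cannot be told apart from more RNA per cell, which holds for every value here.

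**Figure D1:**
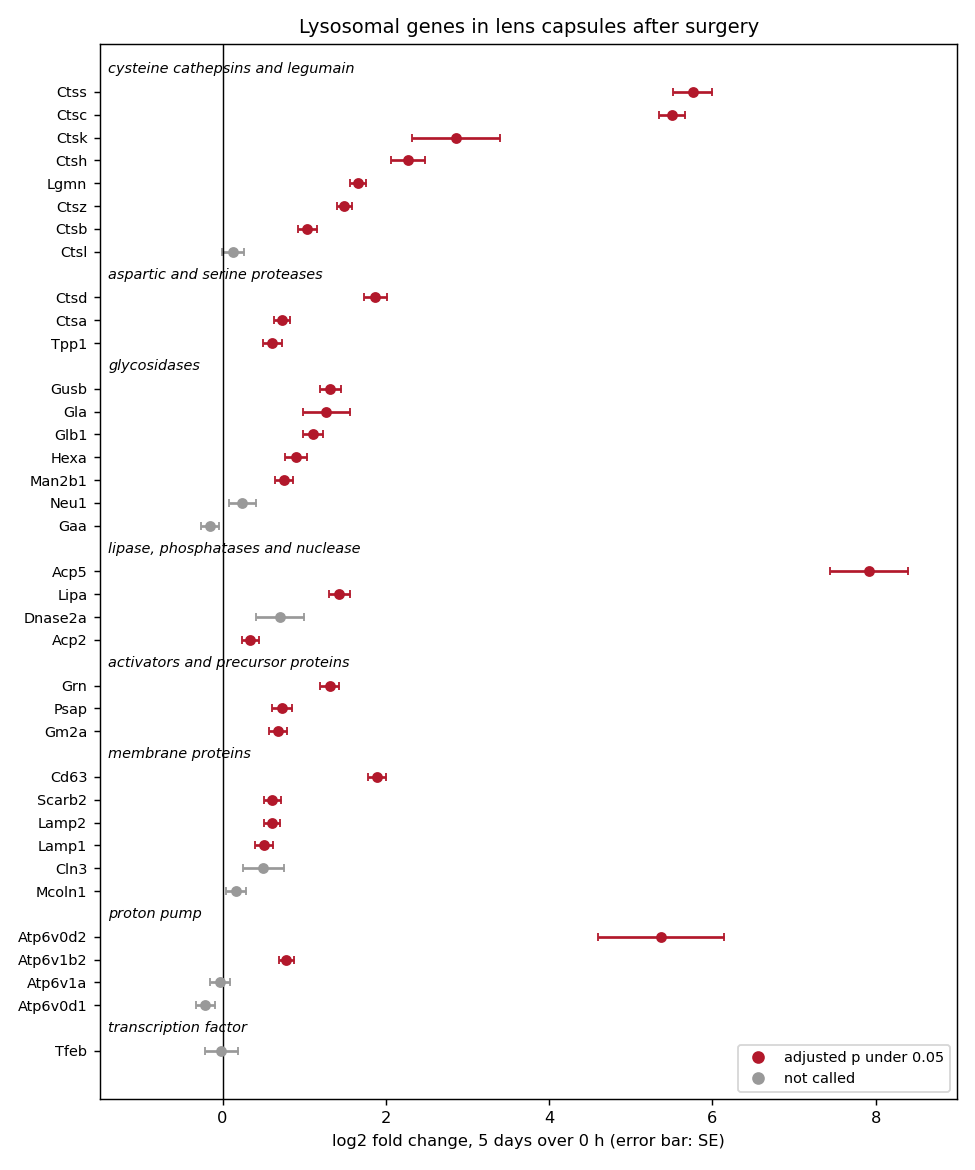
Log2 fold changes of 5 days over 0 h (x axis) for the 36 lysosomal genes, grouped by role, with SE bars; red points were called at an adjusted p under 0.05 and grey points were not. Acp5, Ctss, Ctsc and Atp6v0d2 lie beyond 5, and no red point lies below 0.

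Markers of another cell type moved with this comparison. Macrophage markers were higher for 20 of 20, against 25.1% of all tested genes. Only Csf1r, Lyz2, C1qb, C1qc, Cx3cr1, Mrc1 and Mpeg1 reached the cutoff of the filter on low counts in every 0 h library. The rest, which are most of the list and include Ptprc, Itgam, Aif1, Spi1 and Ccr2, passed it through the 5 day libraries. Genes of this kind could hardly come out lower. The summed levels were 703.2 to 1028 CPM at 5 days against 27.3 to 52.3 CPM at 0 h. The common leukocyte antigen Ptprc had 45.8, 40.1 and 38.6 CPM at 5 days, against 0.808, 1.1 and 1.79 CPM at 0 h. The macrophage growth factor receptor Csf1r had 123, 87.9 and 94.2 CPM at 5 days, against 5.25, 6.25 and 11.8 CPM at 0 h, and the lysozyme gene Lyz2 291, 198 and 236 CPM at 5 days, against 2.83, 3.73 and 10.1 CPM at 0 h. All 3 genes were thus present in the 0 h libraries at a low level, while of the 20 markers the monocyte receptor Ccr2 alone had 123, 96 and 118 counts at 5 days and none at 0 h. The mean of the summed markers was 23.4-fold higher at 5 days. Among the lysosomal genes, Ctsc, Ctss, Acp5 and Atp6v0d2 had a fold between group means at least as large, and the other 32 had a smaller one. How far macrophage RNA accounts for the level of any lysosomal gene was not tested.

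The cysteine proteases had the highest median log2 fold change of the role groups with 3 or more genes, at 1.97. These cathepsins and legumain cut proteins with an active-site cysteine, and 7 of the 8 rose, all of them at least 2-fold. Of all tested genes 25.1% rose and 14.5% rose at least 2-fold. Ctss (cathepsin S, ENSMUSG00000038642), which trims the invariant chain of MHC class II in antigen-presenting cells, had 218, 147 and 172 CPM in the 5 day libraries, against 2.42, 2.41 and 5.01 CPM in the 0 h libraries. Its log2 fold change was 5.76 (SE 0.24, adjusted p = 6.69e-09). Ctsc (cathepsin C, ENSMUSG00000030560), a dipeptidyl peptidase that activates granule proteases of leukocytes, had 953, 939.8 and 1074 CPM at 5 days, against 17.4, 23.6 and 24.2 CPM at 0 h. The change came to 5.50 (SE 0.16, adjusted p = 7.92e-10), and in absolute terms its mean was 967.4 CPM higher, the largest difference among the 36 genes. Both genes were low in every 0 h library and high in every 5 day library, with no overlap.

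Levels were also set against that of the leukocyte antigen. Ctsc stood at 20.8, 23.5 and 27.8 counts per Ptprc count at 5 days, against 21.5, 21.5 and 13.5 at 0 h. Ctss stood at 4.75, 3.66 and 4.46 counts per Ptprc count at 5 days, against 3, 2.2 and 2.8 at 0 h. Ctsd, an enzyme already abundant at 0 h, stood at 9.68, 10.1 and 15.3 counts per Ptprc count at 5 days, against 155, 118 and 77.5 at 0 h. The 0 h ratios rest on 6, 10 and 15 Ptprc counts and are imprecise. Values at 5 days and 0 h overlapped for Ctsc, while those of 5 days were all above for Ctss and all below for Ctsd. All of this follows from the log2 fold changes, which were 5.04 for Ptprc, 5.50 for Ctsc, 5.76 for Ctss and 1.87 for Ctsd. The ratios restate these changes and were not tested. Ratios of the other lysosomal genes are not given.

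Ctsh (cathepsin H, ENSMUSG00000032359), an aminopeptidase, had 52.4, 38.8 and 54.3 CPM in the libraries taken at 5 days and 7, 13.1 and 9.78 CPM in those of 0 h, a log2 fold change of 2.27 (SE 0.21, adjusted p = 3.1e-06). Ctsk (cathepsin K, ENSMUSG00000028111), the collagen-degrading cathepsin of osteoclasts, stayed rare, with 2.71, 2.64 and 3.72 CPM in the 5 day libraries, against 0.673, 0.219 and 0.358 CPM in the 0 h libraries. Its log2 fold change was 2.86 (SE 0.54, adjusted p = 0.000934), on 10 counts over the 0 h libraries. The 5 day libraries were above the 0 h libraries for both genes.

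Lgmn (legumain, ENSMUSG00000021190), an asparaginyl endopeptidase that processes other cathepsins, had, per length, 123, 107 and 111 CPM per kb at 5 days, against 36.9, 33.8 and 37.2 CPM per kb at 0 h. The log2 fold change of Lgmn was 1.66 (SE 0.099, adjusted p = 7.88e-08). Ctsz (cathepsin Z, ENSMUSG00000016256), a carboxypeptidase, had 153, 139 and 138 CPM at 5 days, against 48.4, 53.6 and 50.5 CPM at 0 h, a change of 1.49 (SE 0.096, adjusted p = 1.51e-07). Ctsb (cathepsin B, ENSMUSG00000021939), a broadly expressed endopeptidase and carboxypeptidase, had 551, 456 and 533 CPM in the libraries taken at 5 days and 233, 240.2 and 275 CPM in those of 0 h, with a log2 fold change of 1.04 (SE 0.11, adjusted p = 1.15e-05). Replicates of 1 time differed little for these 3 genes, and the times did not overlap.

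Ctsl (cathepsin L, ENSMUSG00000021477), a lysosomal endopeptidase of most cell types, was the exception. It had 2273, 1905 and 1733 CPM in the 5 day libraries, against 1638, 1768 and 1998 CPM in the 0 h libraries, and the groups overlapped. Its log2 fold change of 0.13 (SE 0.14, adjusted p = 0.468) was not called. Per length, at 304 CPM per kb at 5 days and 278 CPM per kb at 0 h, Ctsl was the most abundant of the 8 proteases at both times.

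Levels of the protease group were also taken as shares. Summed per length, Ctsl made up 34.8, 34.4 and 30.1% of the 8 genes at 5 days and 68.6, 69.5 and 70.6% at 0 h. Ctsc made up 16.3, 19.0 and 20.8% at 5 days and 0.812, 1.04 and 0.956% at 0 h. The share of Ctss was 15.9, 12.7 and 14.3% at 5 days and 0.485, 0.453 and 0.846% at 0 h. Ctsb was nearly level in its share, at 9.03, 8.84 and 9.91% at 5 days and 10.4, 10.1 and 10.4% at 0 h. These shares are descriptions and were not tested.

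**Figure D2:**
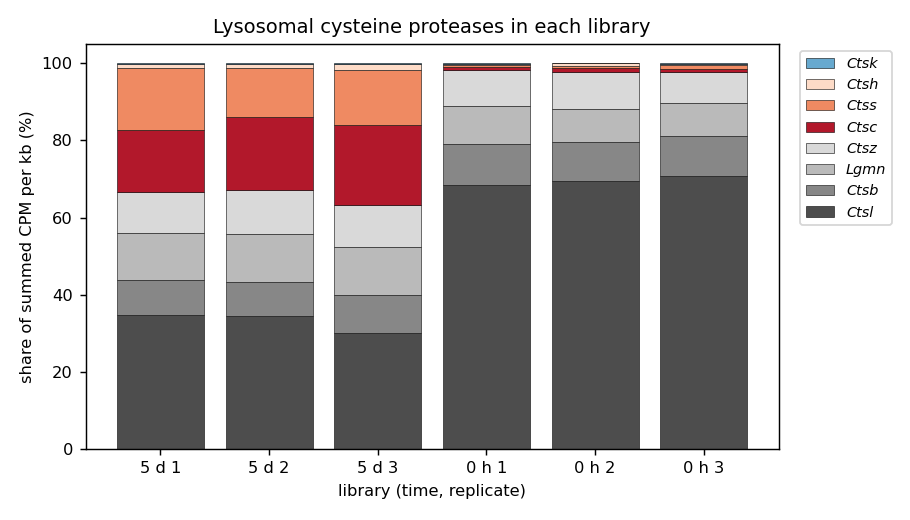
Share of each lysosomal cysteine protease in the summed CPM per kb of the 8 genes (y axis, %) in each library (x axis, 5 days then 0 h). Ctsl fills 30.1 to 34.8% of the bars at 5 days and 68.6 to 70.6% at 0 h, and the bands of Ctsc and Ctss are wider at 5 days.

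Proteases of other classes rose for 3 of 3, against 25.1% of all tested genes. Ctsd (cathepsin D, ENSMUSG00000007891), the main aspartic protease of lysosomes, had 444, 405 and 593 CPM at 5 days, against 125, 130 and 139 CPM at 0 h, a log2 fold change of 1.87 (SE 0.14, adjusted p = 5.17e-07). The serine carboxypeptidase Ctsa (cathepsin A), which also holds β-galactosidase and neuraminidase in a stable complex, averaged 128 ± 6.36 CPM at 5 days and 77 ± 6.52 CPM at 0 h (SD, n = 3 each), a change of 0.73 (SE 0.099). The tripeptidyl peptidase Tpp1, lost in a childhood form of neuronal ceroid lipofuscinosis, averaged 98.9 ± 12.1 CPM at 5 days and 64.7 ± 5.27 CPM at 0 h (SD, n = 3 each), a change of 0.61 (SE 0.11). All 3 were called, and the 5 day libraries were above those of 0 h for each.

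Of the partners of cathepsin A, Glb1 (β-galactosidase, ENSMUSG00000045594) rose, with 45.4, 49.4 and 47.3 CPM in the 5 day libraries, against 20.7, 21 and 24.1 CPM in the 0 h libraries, a log2 fold change of 1.11 (SE 0.12, adjusted p = 1.15e-05). Neu1 (neuraminidase, ENSMUSG00000007038) had 26.7, 29.1 and 19.6 CPM at 5 days, against 20.5, 23 and 20 CPM at 0 h. The groups overlapped for Neu1, and its change of 0.24 (SE 0.17, adjusted p = 0.263) was not called. No test was made of the difference between these genes.

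Glycosidases, which strip sugars from glycoproteins, glycolipids, glycosaminoglycans and glycogen, rose for 5 of 7, against 25.1% of all tested genes. Gusb (β-glucuronidase, ENSMUSG00000025534), which acts on glycosaminoglycans, had 74.3, 59.6 and 58.9 CPM at 5 days, against 25.3, 22.9 and 28.7 CPM at 0 h, a log2 fold change of 1.32 (SE 0.13, adjusted p = 6.64e-06). Gla (α-galactosidase A, ENSMUSG00000031266), the enzyme lacking in Fabry disease, had 9.07, 11.4 and 15.1 CPM in the libraries taken at 5 days and 3.5, 5.27 and 5.96 CPM in those of 0 h, a change of 1.27 (SE 0.28, adjusted p = 0.0027). For these genes each 5 day library was above each 0 h library. Hexa, the α subunit of the hexosaminidase lacking in Tay-Sachs disease, averaged 94.9 ± 9.02 CPM at 5 days and 50.8 ± 8.87 CPM at 0 h (SD, n = 3 each), a change of 0.90 (SE 0.13). Man2b1, the lysosomal α-mannosidase, averaged 116 ± 14.5 CPM at 5 days and 68.8 ± 2.34 CPM at 0 h (SD, n = 3 each), a change of 0.75 (SE 0.11). Gaa (acid α-glucosidase, ENSMUSG00000025579), which breaks down glycogen and is lacking in Pompe disease, had 182, 152 and 135 CPM at 5 days, against 176, 168 and 178 CPM at 0 h. Its log2 fold change of -0.15 (SE 0.11, adjusted p = 0.288) was not called, and the groups overlapped.

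Acp5 showed the largest fold among the 36 genes. Acp5 (ENSMUSG00000001348), the tartrate-resistant acid phosphatase used to stain osteoclasts and some macrophages, had 31.4, 18.6 and 19.6 CPM in the 5 day libraries, against 0, 0.11 and 0.119 CPM in the 0 h libraries. Its 0 h libraries held 2 counts in all, so the change is given as a ratio of counts, 279.3-fold higher at 5 days with a 95% exact interval of 76.9 to 2313 that covers counting error only. The adjusted p was 9.34e-08. Acp2, the lysosomal acid phosphatase of most tissues, averaged 53.1 ± 1.32 CPM at 5 days and 41.9 ± 1.7 CPM at 0 h (SD, n = 3 each), a small change of 0.34 (SE 0.10, adjusted p = 0.0155). The Acp2 call was lost without replicate 1 of 5 days (log2 fold change 0.32, adjusted p = 0.0576), and also without replicate 2 (0.31, adjusted p = 0.0564) or 3 of 0 h (0.33, adjusted p = 0.0594).

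Lipa (lysosomal acid lipase, ENSMUSG00000024781), which frees cholesterol and fatty acids from lipoprotein lipids, had 70, 76.6 and 82.3 CPM at 5 days, against 26.8, 25.3 and 32.8 CPM at 0 h, a log2 fold change of 1.43 (SE 0.13, adjusted p = 1.97e-06). Every 5 day library exceeded every 0 h library for Lipa. Dnase2a (ENSMUSG00000003812), the acid nuclease that digests DNA of engulfed cells, had 15.9, 13.9 and 11.3 CPM in the 5 day libraries, against 4.45, 9.98 and 10.6 CPM in the 0 h libraries. All of its 5 day values were above its 0 h values, but the change of 0.70 (SE 0.29, adjusted p = 0.07) was not called. It was called without replicate 3 of 5 days, at 0.81 (adjusted p = 0.0333), with total library size, at 0.83 (adjusted p = 0.0343), without the filter on low counts, at 0.70 (adjusted p = 0.0163), and by DESeq2, at 0.71 (adjusted p = 0.0494).

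Dnase2b, a relative of Dnase2a outside the 36 genes that degrades nuclear DNA in lens fibers, went the other way. Dnase2b passed the filter on low counts through the 0 h libraries and could hardly come out higher. It had 0, 0 and 0.11 CPM at 5 days, against 23.4, 7.79 and 7.51 CPM at 0 h, with 1 count over the 5 day libraries, and was 288.9-fold lower at 5 days (95% exact counting interval 51.5 to 11450). The ratio was 190.5 without replicate 2 of 5 days and 179 without replicate 1 of 0 h, and without replicate 3 of 5 days, where no count is left at 5 days, Dnase2b was at least 58.7-fold lower. Per length, Dnase2b stood at 0.0131 CPM per kb at 5 days and 4.63 CPM per kb at 0 h. Dnase2a stood at 2.54 CPM per kb at 5 days and 1.55 CPM per kb at 0 h. Dnase2b was thus the more abundant of these nucleases in the 0 h libraries and the less abundant in those of 5 days. It fell together with the fiber markers given above.

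**Figure D3:**
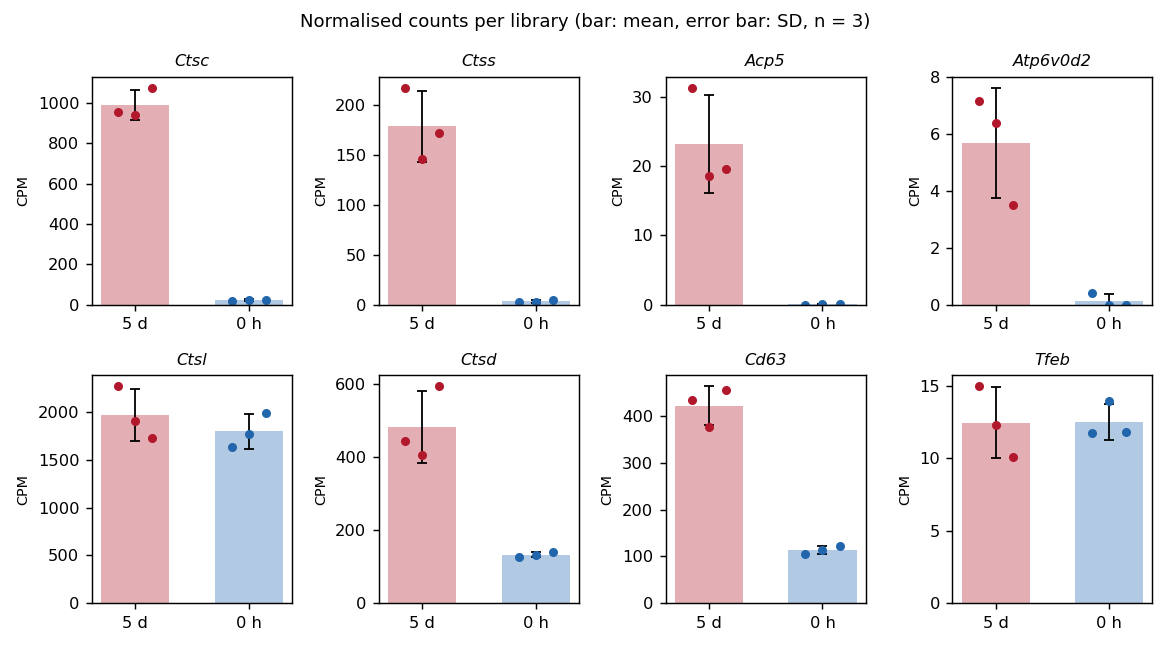
Levels (y axes, CPM, from 0) of 8 genes in each library at 5 days (red, left) and 0 h (blue, right), with means as bars and SD as error bars (n = 3). Ctsc, Ctss, Acp5, Atp6v0d2, Ctsd and Cd63 do not overlap between the times, whereas Ctsl and Tfeb do.

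Activator and precursor proteins rose for 3 of 3, against 25.1% of all tested genes. Grn (progranulin, ENSMUSG00000034708), a secreted and lysosomal glycoprotein cut into granulins, had 410.4, 325 and 306 CPM in the 5 day libraries, against 136, 142 and 141 CPM in the 0 h libraries, a log2 fold change of 1.31 (SE 0.12, adjusted p = 2.56e-06). Psap (prosaposin), the precursor of the saposins that help sphingolipid breakdown, averaged 889 ± 126 CPM at 5 days and 535 ± 20.6 CPM at 0 h (SD, n = 3 each), a change of 0.73 (SE 0.12). Gm2a, which hands the ganglioside GM2 to hexosaminidase, averaged 113 ± 13.2 CPM at 5 days and 70.6 ± 3.31 CPM at 0 h (SD, n = 3 each), a change of 0.68 (SE 0.11). Per length, Psap and Ctsl were the most abundant of the 36 genes. At 5 days Psap stood at 324 and Ctsl at 304 CPM per kb, with libraries that overlapped, and at 0 h Psap stood at 195 and Ctsl at 278 CPM per kb, without overlap.

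Membrane proteins rose for 4 of 6, against 25.1% of all tested genes. Cd63 (ENSMUSG00000025351), a tetraspanin of late endosomes and exosomes, had 434, 377 and 457 CPM at 5 days, against 105, 114 and 122 CPM at 0 h, the largest change of the group at 1.89 (SE 0.11, adjusted p = 7e-08). The heavily glycosylated coat proteins Lamp1 and Lamp2 changed by 0.51 (SE 0.11) and 0.60 (SE 0.099), and Scarb2, a lysosomal membrane protein that also acts as a sorting receptor, by 0.61 (SE 0.11). Lamp1, Lamp2 and Scarb2 were each called, and their 5 day libraries were above those of 0 h. Cln3 (ENSMUSG00000030720), a membrane protein altered in juvenile ceroid lipofuscinosis, had 14.6, 10.3 and 8.76 CPM at 5 days, against 8.76, 6.58 and 8.35 CPM at 0 h, a change of 0.50 (SE 0.25, adjusted p = 0.124). Mcoln1 (ENSMUSG00000004567), the calcium channel TRPML1, had 35.3, 32.3 and 36.2 CPM in the libraries taken at 5 days and 30.3, 30.4 and 31.9 CPM in those of 0 h, a change of 0.16 (SE 0.12, adjusted p = 0.274). Cln3 and Mcoln1 were not called, although each of their 5 day values was above each 0 h value, for Cln3 by a margin that the rounded values do not show.

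The proton pump changed in some subunits. The pump has a membrane sector, V0, through which protons pass, and a cytosolic sector, V1, which uses ATP, and several subunits exist in alternative forms. Of the subunits among the 36 genes, the V1 subunit Atp6v1b2 averaged 100.4 ± 4.9 CPM at 5 days and 58.4 ± 2.12 CPM at 0 h (SD, n = 3 each), a change of 0.78 (SE 0.094, adjusted p = 2.57e-05). The catalytic V1 subunit Atp6v1a (ENSMUSG00000052459) had 73.2, 58.9 and 70.2 CPM in the 5 day libraries, against 60.7, 77.2 and 68.3 CPM in the 0 h libraries. Its groups overlapped and its change of -0.031 (SE 0.12, adjusted p = 0.858) was not called, and had the opposite sign, at 0.099, with total library size.

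The d subunit of V0 exists in alternative forms. Atp6v0d2 (ENSMUSG00000028238), the form of osteoclasts and some macrophages, had 7.16, 6.41 and 3.5 CPM at 5 days, against 0.404, 0 and 0 CPM at 0 h. The 3 counts of Atp6v0d2 at 0 h all lay in replicate 1, and as a ratio of counts it was 45.5-fold higher at 5 days (95% exact counting interval 15.2 to 223.5, adjusted p = 0.000116 by edgeR). The fitted log2 fold change was 5.37, and it was 8.53 without replicate 1 of 0 h, where no count is left at 0 h, and 4.77 without replicate 2 of 0 h. The ratio of counts was 28.9 without replicate 2 and 30.2 without replicate 3 of 0 h. Atp6v0d1 (ENSMUSG00000013160), the form of most tissues, had 43, 39.3 and 40.6 CPM at 5 days, against 44.2, 53.5 and 44.6 CPM at 0 h. Its 5 day libraries were all below its 0 h libraries, but the change of -0.21 (SE 0.12, adjusted p = 0.154) was not called. Atp6v0d2 made up 14.3, 14.0 and 7.94% of the d-subunit counts at 5 days and 0.906, 0 and 0% at 0 h. The two-sided exact permutation test gave p = 0.1, its minimum with 3 libraries a side. As Atp6v0d2 passed the filter on low counts through the 5 day libraries, it could hardly come out lower, and no conclusion is drawn from this test. Counts of 0 out of 488 and 374 d-subunit counts are limited by depth. Atp6v0d1 remained the more abundant form in all 6 libraries.

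Of the other V-ATPase subunits 21 were listed and 16 tested, and 6 rose, which is 37.5% against 25.1% of all tested genes. None was called lower by edgeR, DESeq2 or limma-voom, and 1 was lower at an unadjusted p under 0.05. Tcirg1, the a3 form of the large V0 subunit known from osteoclasts, had 90.5, 76.5 and 85.5 CPM at 5 days, against 8.76, 8.12 and 8.7 CPM at 0 h, the largest change of these at 3.30 (SE 0.13, adjusted p = 4.18e-09). Per length, Tcirg1 made up 42.5, 36.7 and 41.8% of the 4 a-subunit genes at 5 days and 6.74, 6.38 and 6.1% at 0 h. The other a forms Atp6v0a1 and Atp6v0a2 were not called, at -0.17 (SE 0.11) and 0.12 (SE 0.092). The most abundant called subunit, Atp6v1e1, changed by 0.75 (SE 0.10). Most core subunits of V1, such as Atp6v1c1, Atp6v1d and Atp6v1h, were not called, at -0.18, -0.062 and -0.14.

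**Figure D4:**
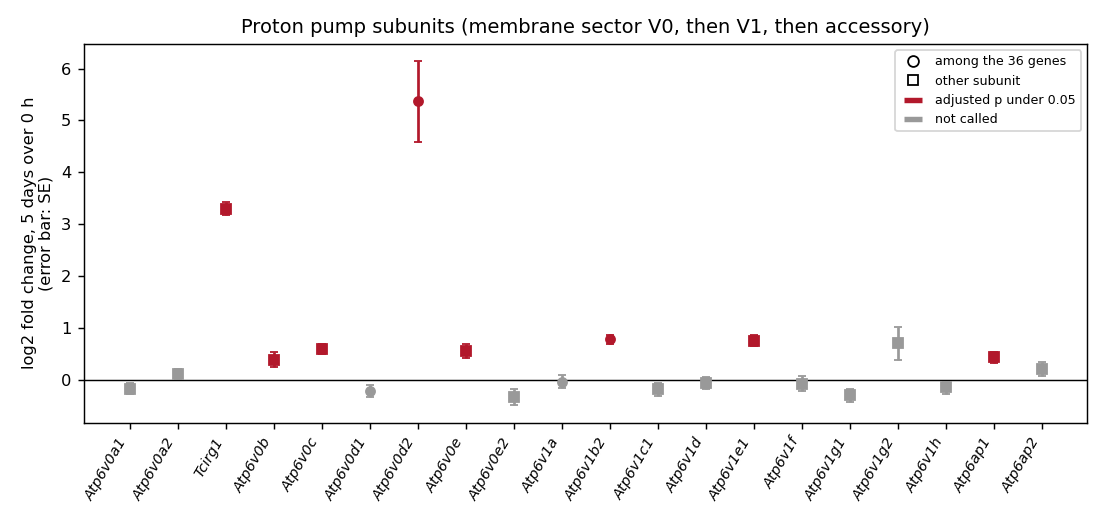
Log2 fold changes of 5 days over 0 h (y axis, SE bars) for the 20 tested subunits of the proton pump (x axis); circles are subunits among the 36 genes, squares are other subunits, and red marks an adjusted p under 0.05. Atp6v0d2 and Tcirg1 lie at 5.37 and 3.30, and the other subunits lie between -0.33 and 0.78.

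Tfeb, the factor that switches on many lysosomal genes when it enters the nucleus, was among the 9 genes not called. Tfeb (ENSMUSG00000023990) had 15, 12.3 and 10.1 CPM in the 5 day libraries, against 11.7, 13.9 and 11.8 CPM in the 0 h libraries, and the groups overlapped. Its log2 fold change was -0.015 (SE 0.21, adjusted p = 0.96), and it was positive, at 0.11, with total library size. RNA counts say nothing on where the protein is. Of 20 related factors and regulators 5 rose (25.0%, against 25.1% of all tested genes) and 2 fell (10%, against 22.5%). Tfe3, a close relative, changed by 0.79 (SE 0.12), and Mitf, another, was not called at -0.00131. Tfec, the relative known from macrophages, had 2.23, 1.88 and 4.93 CPM at 5 days and no counts at 0 h. Tfec passed the filter on low counts through the 5 day libraries and could hardly come out lower. Mtor, the kinase that keeps TFEB in the cytoplasm, had 336, 348 and 239 CPM at 5 days, against 614, 609.6 and 690 CPM at 0 h, a change of -1.05 (SE 0.14, adjusted p = 6.37e-05).

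Genes with the TFEB element printed above and genes without it are set side by side as a description. Of the 7 with it, Ctsd, Ctsa and Gla were called higher and Cln3, Mcoln1, Atp6v0d1 and Atp6v1a were not, with a median log2 fold change of 0.50. Of the 25 whose windows lack it, 20 were called higher, with a median of 0.75. The changes ranged from -0.21 to 1.87 with the element and from -0.15 to 7.91 without it. Acp5 and Ctsk, which passed the filter on low counts through the 5 day libraries, are among the 25. The core CACGTG was present in 12 of the 32 genes, including the 7, so some of the 25 hold the core. No test was made, and the windows cover a short stretch only.

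Other lysosomal and autophagy genes are set against the same shares of all tested genes, 25.1% higher and 22.5% lower. Of 29 tested hydrolases outside the 36 genes 11 rose (37.9%) and 8 fell (27.6%). The phospholipase-like Plbd1 had the largest rise at 4.99 (SE 0.55, adjusted p = 1.39e-05), on 4 counts over the 0 h libraries. Plbd1 passed the filter on low counts through the 5 day libraries and could hardly come out lower. Among cathepsins of this list Ctsf fell by 1.07 on the log2 scale and Ctso was not called at 0.19. Ctsw, which was not tested, had 7, 18 and 27 counts at 5 days, against 0, 0 and 2 at 0 h. Ctsf, Ctso and Ctsw were picked as relatives of the 36 after their values were seen.

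Among 22 membrane and transport proteins 7 rose (31.8%) and 5 fell (22.7%), close to the shares of all tested genes. Laptm5, a lysosomal protein of blood cells, changed by 4.82 (SE 0.20, adjusted p = 6.18e-09), and Cd68, a macrophage lysosomal glycoprotein, by 3.74 (SE 0.40, adjusted p = 1.04e-05). Cd68 and Slc11a1, also among the 7, passed the filter on low counts through the 5 day libraries and could hardly come out lower. Lamp3 fell furthest, with 0.318, 1 and 0.329 CPM at 5 days, against 10.8, 5.71 and 8.11 CPM at 0 h, a change of -3.84 (SE 0.48, adjusted p = 3.92e-05). Lamp3 passed that filter through the 0 h libraries and could hardly come out higher. The lipid transporter Abca2, the most abundant called gene of this list, changed by -0.83 (SE 0.12). Of 11 genes that sort lysosomal enzymes 6 rose (54.5%) and 2 fell (18.2%). The mannose 6-phosphate receptor Igf2r changed by 0.87 (SE 0.10), the uncovering enzyme Nagpa by 1.42 (SE 0.28) and the sorting receptor Sort1 by -0.69 (SE 0.11).

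Of 22 tested autophagy genes 7 rose (31.8%) and 2 fell (9.09%), and 5 rather than 9 were called without replicate 1 of 5 days. The cargo adaptor Sqstm1 changed by 0.92 (SE 0.098, adjusted p = 9.79e-06) and Gabarapl1, of the LC3 family, by -1.25 (SE 0.14, adjusted p = 1.18e-05). The cystatin list holds 9 genes, inhibitors of cysteine proteases apart from the serpin Serpinb1a, and 2 of the 9 were tested. Cst3, the secreted cystatin C, had 321, 259.8 and 252 CPM at 5 days, against 355, 384 and 445 CPM at 0 h, a change of -0.51 (SE 0.12, adjusted p = 0.00494). Cstb, an intracellular inhibitor of cathepsins, had 13.1, 15.2 and 13.7 CPM at 5 days, against 5.25, 4.94 and 5.96 CPM at 0 h, a change of 1.38 (SE 0.21, adjusted p = 0.00021). Cst3 was lower and Cstb higher in every 5 day library than in any 0 h library.

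**Figure D5:**
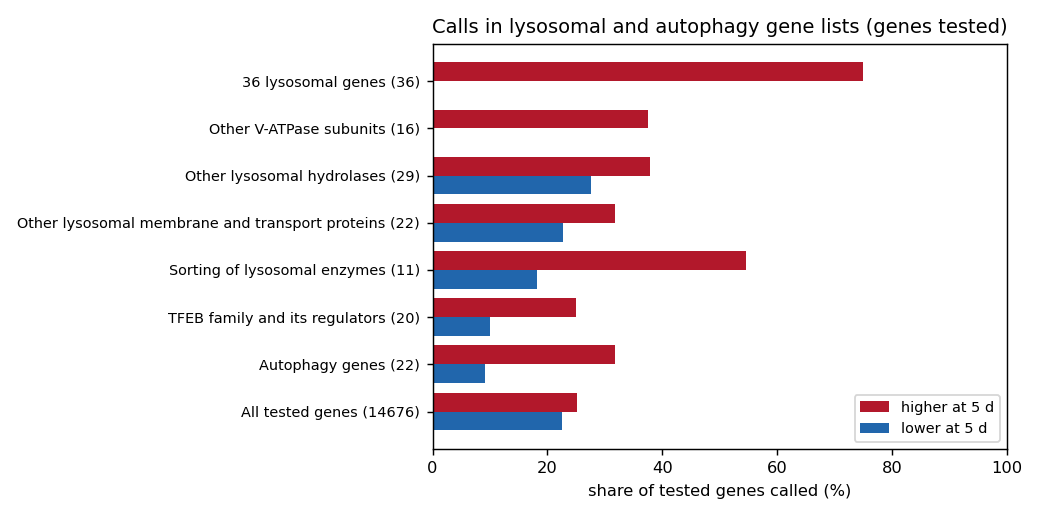
Share of tested genes called higher (red) and lower (blue) at 5 days (x axis, %) in the 36 lysosomal genes, in related lists and in all tested genes, with the number tested in brackets. The 36 genes reach 75.0% higher and 0% lower, and all tested genes 25.1% higher and 22.5% lower.

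Markers of cells that share Acp5, Ctsk, Atp6v0d2 and Tcirg1 with macrophages were also measured. Of 9 osteoclast markers 6 were tested and 6 rose, against 25.1% of all tested genes. Mmp9, Itgb3 and Ocstamp, with 3, 4 and 2 counts over the 0 h libraries, passed the filter on low counts through the 5 day libraries. They could hardly come out lower. The 9 markers summed to 273.3 to 301.2 CPM at 5 days against 92.0 to 98.5 CPM at 0 h. The matrix protease Mmp9 had 478, 700 and 1204 counts at 5 days, against 0, 1 and 2 at 0 h. It was 846.5-fold higher (95% exact counting interval 289.3 to 4108), and 1685-fold without replicate 3 of 0 h. Ckb, the most abundant, averaged 140.5 CPM at 5 days and 82.55 CPM at 0 h, a change of 0.77 (SE 0.098). Ckb thus made up most of the 0 h sum, and Ckb and Mmp9 (mean 98.6 CPM) most of that at 5 days. The integrin subunit Itgb3 and the transcription factor Nfatc1 changed by 5.24 (SE 0.68) and 2.06 (SE 0.23). The fusion gene Ocstamp had 10, 27 and 25 counts at 5 days, against 0, 2 and 0 at 0 h. The other fusion gene Dcstamp, which was not tested, had 1, 5 and 8 counts at 5 days, against 0, 7 and 2 at 0 h. The calcitonin receptor Calcr had no counts in any library, and Oscar had 0, 4 and 1 counts at 5 days, against 0, 4 and 0 at 0 h.

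Of 10 neutrophil markers 3 were tested and 3 rose, against 25.1% of all tested genes. These 3 passed the filter on low counts through the 5 day libraries and could hardly come out lower. The 10 markers summed to 15.7 to 26.6 CPM at 5 days against 0.119 to 0.329 CPM at 0 h. Csf3r changed by 6.14 (SE 0.47) and S100a9 had 22, 10 and 19 counts at 5 days and none at 0 h, while Ly6g, Elane, Mpo and Camp had no counts in any library. Endothelial and blood markers rose for 2 of 4 tested, against 25.1% of all tested genes. These 2, Pecam1 and Cdh5, passed the filter on low counts through the 5 day libraries and could hardly come out lower. The list summed to 27.2 to 46.6 CPM at 5 days against 8.35 to 15.8 CPM at 0 h. The endothelial adhesion gene Pecam1 changed by 4.19 (SE 0.52). Of 7 tested pigment cell markers 1 rose (14.3%, against 25.1% of all tested genes) and 2 fell (28.6%, against 22.5%). The list summed to 133.2 to 177.4 CPM at 5 days against 108.7 to 152.7 CPM at 0 h, with opposite changes inside it. Oca2 had 2.7, 1.13 and 0.657 CPM at 5 days, against 91.7, 80.3 and 85.5 CPM at 0 h. The gene that rose was Gpnmb, a lysosomal glycoprotein also made by macrophages, at 3.62 (SE 0.35, adjusted p = 4.64e-06). Gpnmb had 161, 110 and 134 CPM at 5 days, most of the sum, against 7, 5.49 and 20.5 CPM at 0 h. The retinal pigment epithelium gene Rpe65 had no counts at 5 days, against 42, 49 and 99 counts at 0 h. Oca2 and Rpe65, the 2 that fell, passed the filter on low counts through the 0 h libraries and could hardly come out higher. The part of these cells in the levels of the lysosomal genes was not tested.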

How the data were processed

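The authors deposited raw counts per Ensembl gene for 6 libraries. Tools named in the submitters' processing notes are HISAT2, HTSeq and edgeR, with GRCm39 as the build. Libraries were made from total RNA with a stranded low-input kit (SMARTer Pico) per the labels' protocols. Tool versions, the annotation and the strand and overlap settings of the counting are not stated in the sources used here. Each table ends in 5 HTSeq summary entries, which held 32.26 to 42.55% of reads and were left out. Symbols, for 91.23% of the genes, and exon lengths came from GENCODE M21 (GRCm38), and promoter sequences from RefSeq (GRCm38.p6). No coordinates were moved between builds. In GENCODE M21 exons of 13 of the 36 genes overlap another gene (3 on the same strand, 11 on the opposite strand), among them Ctsl, Ctsd, Ctsb, Ctsz, Acp5, Glb1 and Grn, whose counts are thus less certain. No 2 libraries of a time agreed within sampling noise (chi-square per degree of freedom 6.52 to 31.2).

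Counts were filtered with edgeR's default (10 counts, about 1.22 CPM), scaled with TMM and tested with edgeR 4.0.16 in R 4.3.3 by the quasi-likelihood test on all 6 libraries without a block, with Benjamini-Hochberg adjustment. P-values measure the spread between these pools. Single values were compared by exact permutation. Intervals and floors (3 counts over a group) cover counting error only. CPM per kb divides CPM by exon length. The fit was tested on simulated data. Alternatives were DESeq2 1.42.0 and its size factors, total library size, other filters, limma-voom (limma 3.58.1), replicate blocks and leaving out each library. Ratios of genes with few counts were also taken without each library, a choice made after seeing the data. Values per library are given for genes of the 36 that were called with at least a 2-fold change or were not called, with means or changes for the rest. From each other list the called gene of highest level, the largest rise and the largest fall are named, except for a few that are not reported here. The 36 genes and the lists were chosen with earlier results of these data known. The listed fiber marker Lim2 was not analysed here. Figures were drawn with Python 3.11.15 and matplotlib 3.10.9.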

Additional observations from a re-analysis of the deposited data

How the results depend on the processing

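The count of lysosomal genes called higher was 27 and ranged from 26 to 28 over the 14 other settings, and no setting called any of the 36 lower. The count at least 2-fold higher was 16 and ranged from 15 to 17. Acp2 lost its call under the replicate block by library name number (log2 fold change 0.33) and without replicate 1 of 5 days or replicate 2 or 3 of 0 h. Dnase2a gained one with total library size (0.83), no low-count filter (0.70), DESeq2 (0.71), that block (1.04) and without replicate 3 of 5 days (0.81). Total library size shifted all log2 fold changes by a median of 0.13 and made 62.9% of all calls upward against 52.7% with TMM, and the median of the 36 genes was 0.89 there against 0.77. Atp6v1a and Tfeb, both uncalled, changed sign. Atp6v1a went to 0.099 with total library size and 0.022 with the block by library name number, and to 0.064 and 0.055 without replicate 2 of 5 days and of 0 h, with -0.12 to 0.064 over the libraries left out. Tfeb went to 0.11 with total library size and 0.20 with that block, and to 0.11 and 0.067 without replicate 3 of 5 days and replicate 2 of 0 h, with -0.17 to 0.11 over the libraries left out. The cause of these moves was not tested. Of the related lists, 5 rather than 9 autophagy genes were called without replicate 1 of 5 days, with 5 to 9 over the libraries left out, 1 rather than 3 neutrophil markers with a filter of 2 CPM in 3 libraries, and 4 rather than 2 endothelial and blood markers without a filter.

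The difference in the share of Atp6v0d2 among d-subunit counts was 11.8 percentage points and 10.7 to 13.8 with a library left out. Replicate numbers are not stated to pair pools, and same-numbered libraries deviated from their group means with correlations of -0.0897 to 0.0434. With a replicate block by title number 27 of the 36 genes were higher and with one by library name number (4 libraries) 27 were. Depth limits the rare genes: Acp5, Atp6v0d2 and Ctsk had 2, 3 and 10 counts over the 0 h libraries.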
